A study of Mus musculus with 12 samples.

Results

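Premalignant hepatocyte aggregates and hepatocellular carcinoma (HCC) of the mouse liver were set against each other gene by gene. The value tested was the difference of changes, the change of aggregates over non-aggregate cells minus the change of HCC over normal hepatocytes, on the log2 scale. A positive difference means that the aggregate change lay above the HCC change. All 12 arrays of the series entered the test, and 10641 of the 19057 genes on the array were measured well enough to be tested.

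The arrays fall into 4 groups of 3: aggregates of premalignant hepatocytes, premalignant hepatocytes outside aggregates, HCC described as fully malignant, and normal hepatocytes. The liver cells came from male mice of the B6 strain that were matched for age, were freshly isolated, and gave total RNA for Illumina bead arrays. HCC had been induced with DEN, which is diethylnitrosamine, a carcinogen that hepatocytes convert into a DNA-alkylating form. The labels name no other allele or agent, and give neither age, dose and time nor how aggregates were separated from the other cells. Whether replicates are different animals is not stated, so the p-values measure the spread between these samples, which may be technical. Aggregates and non-aggregates shared 1 chip, and HCC and normal hepatocytes shared the other. Each inner change therefore lies within a chip, but a level of a premalignant group cannot be told apart from a chip effect when it is set against HCC or normal cells.

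Hepatocytes detoxify foreign compounds, make glucose, urea and bile acids, and secrete most plasma proteins. In liver tumours much of this adult programme is commonly reduced, and genes of the fetal liver or of other epithelia come on. In livers exposed to DEN, small hepatocyte clusters are known from earlier work as a place where cells that can form tumours are found. Between hepatocytes lie sinusoidal endothelial cells, resident macrophages called Kupffer cells, and stellate cells, and their RNA can enter a hepatocyte preparation.

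A mean of 17386 ± 487 probes (SD, n = 3) was detected in aggregates, 16708 ± 322 in non-aggregates, 18781 ± 687 in HCC and 15753 ± 528 in normal hepatocytes. The log2 normalized signal of the tested genes ran from 4.14 to 15.56 with a median of 6.97. Summed over 18 hepatocyte markers, the linear signal was 293336 to 316315 in aggregates and 290083 to 308145 in non-aggregates. It was 258250 to 280210 in HCC and 292275 to 306067 in normal hepatocytes, so hepatocyte markers were present in every group and their sum was lowest in HCC. By the test described below, 8 of the 18 were lower and 2 higher in HCC. The probe of Fabp1, a further hepatocyte marker, was not detected on any array. The probe for Alb, albumin, had a mean log2 signal of 9.38 over the 12 arrays, although albumin is among the most abundant liver transcripts, so its values are a weak guide to albumin. In these bulk samples, fewer cells of a type and less RNA per cell cannot be told apart.

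The difference of changes was called (limma, Benjamini-Hochberg adjusted p below 0.05) for 2214 genes, 20.8% of those tested. The difference was higher, that is positive, for 1065 genes (10%) and lower, that is negative, for 1149 (10.8%). In HCC against normal hepatocytes 5218 genes (49.0%) were called, 2451 higher (23%) and 2767 lower (26.0%). In aggregates against non-aggregates 81 genes rose (0.761%) and 0 fell (0%), with 609 up and 155 down before adjustment (p under 0.05). Median scaling of the arrays in place of quantile normalization gave 433 higher and 1863 lower differences, and moved the median difference of all genes to -0.24 and the median HCC change to 0.18. The directions of calls near 0 therefore depend on the scaling. Leaving out non-aggregate replicate 1 left 16 genes called in aggregates, leaving out aggregate replicates 1 or 3 left 39 or 19, and leaving out non-aggregate replicates 2 or 3 left 32 each. The count was 140 without aggregate replicate 2, 123 or 157 without HCC replicates 1 or 2, and 159 without normal replicate 3.

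A gene was taken as changed in HCC but not in aggregates when its HCC change and its difference were both called and the 95% interval of its aggregate change lay within 1 log2 unit of 0. This held for 1863 genes (17.5%), of which 858 were higher and 1005 lower in HCC, and for 1205 without aggregate replicate 2. A gene was taken as changed alike when both changes were called in the same direction and the difference was not. There were 34 of these (0.320%), all higher in both. A further 44 genes (0.413%) rose in both and by more in HCC. Leaving out 1 array gave 15 (without non-aggregate replicate 1) to 74 (without HCC replicate 1) of the last kind, with 22, 20 and 17 without non-aggregate replicates 2 and 3 and aggregate replicate 3 and 68 without HCC replicate 2. No gene was called in opposite directions or called in both with a larger change in aggregates. For 2990 genes HCC was called, aggregates were not, and the difference was not called either, so these were placed in none of the classes. Among 287 genes the HCC change and the difference were called but the interval of the aggregate change was wider than the bound.

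Across the 10641 genes the aggregate change had a Pearson r of 0.66 and a Spearman rho of 0.55 with the HCC change. The points share the normalization, and genes are not independent replicates. The 4 groups share no sample, so neither change contains the other's controls. The 500 genes that rose by over 2 log2 units in HCC had a median aggregate change of 0.74 beside a median HCC change of 2.71, and 97.8% of them had an aggregate change above 0. The 173 genes that fell by over 2 units in HCC had a median aggregate change of -0.18 beside a median HCC change of -2.52. Of these, 157 (90.8%) had an aggregate change of the same sign, so a small shift went the same way. Over all genes the medians were -0.03 in aggregates and -0.08 in HCC, and 42.0% had an aggregate change above 0.

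**Figure D1:**
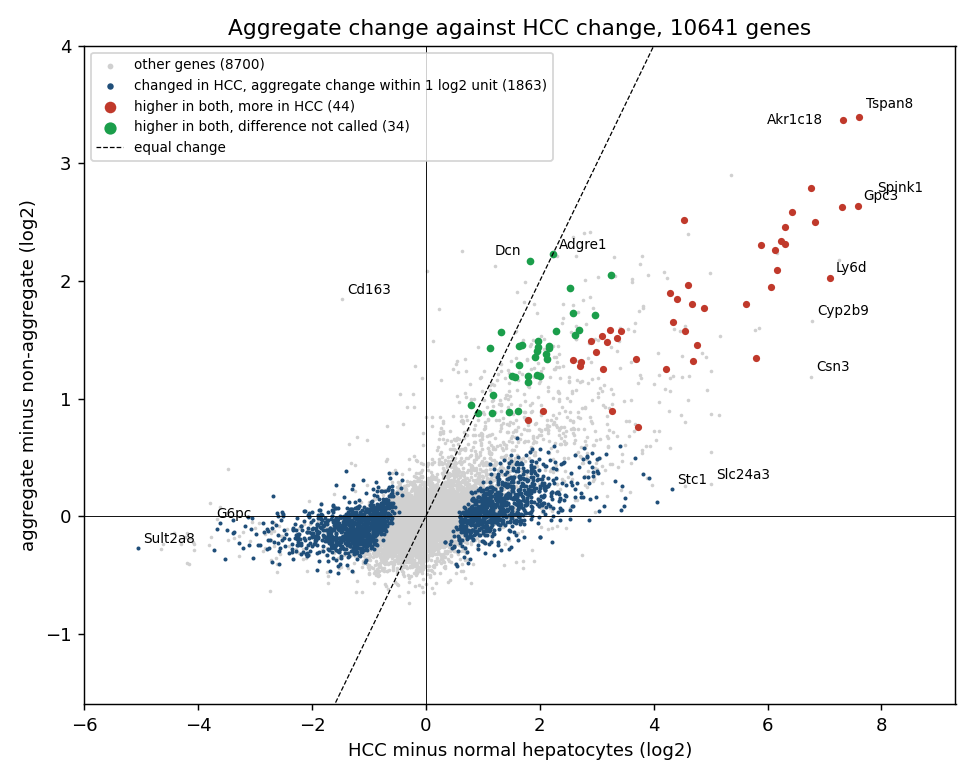
Change of aggregates over non-aggregates (y axis, log2) against change of HCC over normal hepatocytes (x axis, log2) for 10641 genes, 1 point a gene, coloured by class. The 1863 genes changed in HCC but not in aggregates lie along the x axis on both sides, whereas the 34 genes changed alike and the 44 that rose more in HCC lie in the upper right.

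Many genes of adult hepatocyte metabolism fell in HCC without a called change in aggregates. Drug and steroid metabolism held many of these falls. Among 29 measured cytochromes P450, flavin monooxygenases and aldehyde oxidases, which oxidise drugs, steroids and lipids, 18 fell and 3 rose in HCC and 0 were called in aggregates. The difference was higher for 15 of the 29 and lower for 2, against 10% and 10.8% of all genes, and 17 of the 29 were changed in HCC but not in aggregates. Among all genes 0.761% rose and 0% fell in aggregates, so 0 aggregate calls in this list, or in the others described here, is near the share of all genes and no result about the members. In HCC 23% of all genes rose and 26.0% fell. The counts of every list below are to be read beside these shares and those of the difference. The median change of the list was -0.01 in aggregates and -1.21 in HCC. Summed over the list the linear signal was 261541 to 272820 in aggregates, 257072 to 272994 in non-aggregates, 146647 to 157175 in HCC and 221405 to 234897 in normal hepatocytes. The 2 genes with a lower difference were Cyp2d26 and Fmo4, which were named after their values were seen and rose in HCC by 1.17 and 2.11.

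Cyp2b10, a P450 that the drug receptor CAR induces, had log2 signals of 7.90, 8.22 and 8.0 in aggregates, 7.81, 8.44 and 8.20 in non-aggregates, 4.51, 4.91 and 4.42 in HCC and 8.04, 8.29 and 8.51 in normal hepatocytes. The HCC arrays lay far below the normal ones and the premalignant groups overlapped. Its change was -0.11 ± 0.20 in aggregates and -3.67 ± 0.20 in HCC, and the difference was 3.56 ± 0.28 (SE; adjusted p = 2.7e-05). Cyp2c54, of the Cyp2c family, had a change of -0.37 in aggregates and -3.53 in HCC (difference adjusted p = 2.7e-05). Aox3, an aldehyde oxidase, had a change of -0.06 and -2.86 in the same order (difference adjusted p = 9.7e-05). Cyp2f2, a P450 of periportal hepatocytes, had a change of -0.01 in aggregates and -3.12 in HCC (difference adjusted p = 0.0051). Cyp2e1, the main enzyme that activates DEN, was near the top of the scale in aggregates, at 15.39, 15.35 and 15.37, and in non-aggregates, at 15.33, 15.36 and 15.32. It was at 13.79, 14.37 and 14.34 in HCC and 15.30, 15.11 and 15.31 in normal hepatocytes. Its change was 0.03 in aggregates and -1.07 in HCC, with a difference of 1.11 ± 0.22 (adjusted p = 0.0054). Probes of the Cyp2b and Cyp2c families may read near-identical copies.

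Conjugating enzymes, which attach sulphate, glucuronide, glutathione, acetyl or methyl groups, followed the same split. Of 37 measured, 19 fell and 2 rose in HCC, 0 were called in aggregates, and the difference was higher for 13 and lower for 0. The list's medians were 0.01 in aggregates and -0.52 in HCC. Sult2a8, a liver sulphotransferase, had the largest difference of any gene tested in this direction. Its log2 signals were 12.66, 12.32 and 12.27 in aggregates, 12.81, 12.63 and 12.64 in non-aggregates, 8.52, 7.57 and 6.85 in HCC and 12.70, 12.53 and 12.87 in normal hepatocytes. HCC stood apart, with its 3 arrays more than 3 units below every other array. Its change was -0.28 ± 0.31 in aggregates and -5.05 ± 0.31 in HCC, and the difference was 4.78 ± 0.44 (adjusted p = 7.4e-05). Ugt3a1, a sugar transferase, had a change of -0.35 in aggregates and -3.04 in HCC (difference adjusted p = 0.0012). Nnmt, which methylates nicotinamide, had the largest SD of the list in HCC, with 10.39, 12.47 and 8.03, against 14.15, 13.98 and 14.06 in normal hepatocytes. Its difference of 3.59 ± 1.06 (adjusted p = 0.032) was not called with the replicate block (adjusted p = 0.053) or when any 1 of the 9 aggregate, non-aggregate or normal arrays was left out. Car1 and Car3, carbonic anhydrases, and Ces3b, a carboxylesterase of the endoplasmic reticulum, were among the largest falls in HCC. Car3 had a change of 0.11 in aggregates and -3.80 in HCC, with a difference adjusted p of 0.0098. Ces3b had a change of -0.03 and -3.39 in the same order (difference adjusted p = 2.3e-04). Car1 was not detected on any HCC array and was at least 9.5-fold lower there than in normal hepatocytes, while its aggregate change was -0.14 (difference adjusted p = 5.5e-06).

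**Figure D2:**
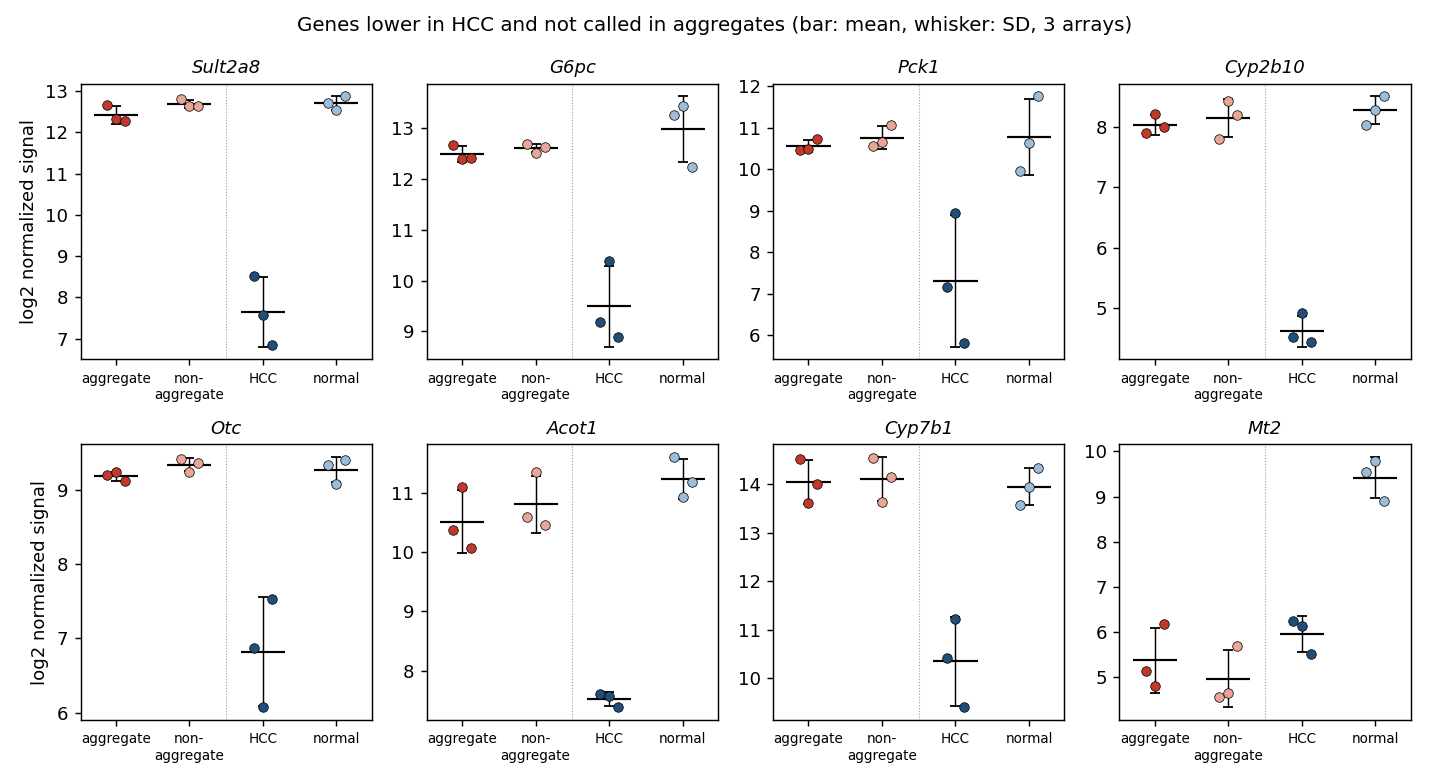
Log2 normalized signal of 8 genes on each of the 12 arrays (points), with the group mean (bar) and SD (whisker), for aggregates, non-aggregates, HCC and normal hepatocytes. In 7 panels HCC alone is low, whereas Mt2 is low in aggregates, non-aggregates and HCC and high in normal hepatocytes.

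Gluconeogenesis, by which the liver makes glucose during fasting, gave the second lowest median of the lists in HCC, -1.75, beside -0.16 in aggregates. Of 8 measured genes, 6 fell in HCC, 0 were called in aggregates, and the difference was higher for 6. G6pc, the catalytic subunit that releases free glucose, and Pck1, the enzyme of the committed step, are the best-known targets of fasting hormones and of hepatocyte transcription factors. Their promoters are shown because both genes fell in HCC without a called change in aggregates. The windows run from 250 bases before to 50 after the gene start, are taken from RefSeq on build GRCm38.p6, and both lie on the plus strand. The G6pc window is chr11:101367466-101367765, and the capitals mark the letters GTTAATNA, the first bases of the site of the hepatocyte factor HNF1, searched on both strands. The Pck1 window is chr2:173152823-173153122, and the capitals mark the reverse complement of TGACGTNA, the cyclic AMP response element, also searched on both strands.
G6pc: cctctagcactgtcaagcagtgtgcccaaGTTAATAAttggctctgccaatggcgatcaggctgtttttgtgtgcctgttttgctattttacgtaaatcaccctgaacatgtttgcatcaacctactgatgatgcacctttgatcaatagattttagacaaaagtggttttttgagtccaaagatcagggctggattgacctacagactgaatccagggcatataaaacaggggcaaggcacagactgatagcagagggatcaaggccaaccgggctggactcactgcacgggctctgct
Pck1: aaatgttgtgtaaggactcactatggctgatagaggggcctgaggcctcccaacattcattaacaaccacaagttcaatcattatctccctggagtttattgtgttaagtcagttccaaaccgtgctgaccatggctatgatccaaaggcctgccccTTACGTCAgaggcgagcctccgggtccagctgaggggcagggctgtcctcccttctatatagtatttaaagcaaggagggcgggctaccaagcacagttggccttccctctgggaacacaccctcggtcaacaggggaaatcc
The match begins 221 bases before the G6pc gene start, and 2.54% of 32851 RefSeq mouse promoter windows of this length hold such letters. In Pck1 it begins 93 bases before the start, and 2.93% of windows hold it. A match in letters is a description and no measured binding site.

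G6pc had log2 signals of 12.67, 12.38 and 12.40 in aggregates, 12.68, 12.51 and 12.63 in non-aggregates, 9.19, 10.38 and 8.89 in HCC and 13.26, 13.44 and 12.23 in normal hepatocytes. The lowest premalignant array was about 2 units above the highest HCC array, and aggregates overlapped non-aggregates. Its change was -0.12 ± 0.36 in aggregates and -3.49 ± 0.36 in HCC, and the difference was 3.37 ± 0.51 (adjusted p = 0.0011). Pck1 had 10.47, 10.48 and 10.73 in aggregates, 10.56, 10.65 and 11.07 in non-aggregates, 7.17, 8.95 and 5.80 in HCC and 9.95, 10.64 and 11.76 in normal hepatocytes. HCC replicate 2 was higher than the other HCC arrays but below every array of the other groups. The difference of 3.28 ± 0.88 was called (adjusted p = 0.022). Pck1 was not counted among the genes changed in HCC but not in aggregates, since its SE, pooled over the 4 groups, gave an interval of -1.56 to 1.16 around an aggregate change of -0.20. Mdh1, the cytosolic malate dehydrogenase, had a change of -0.20 in aggregates and -2.12 in HCC (difference adjusted p = 0.0034).

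Of 37 measured genes of urea synthesis and amino acid breakdown, 25 fell and 1 rose in HCC, where 26.0% and 23% of all genes did. The difference was higher for 15 and lower for 0, against 10% and 10.8% of all genes, and 0 were called in aggregates. The medians were -0.11 in aggregates and -0.94 in HCC. Otc, the urea cycle enzyme that makes citrulline, had log2 signals of 9.19, 9.24 and 9.12 in aggregates, 9.41, 9.24 and 9.36 in non-aggregates, 6.86, 6.07 and 7.53 in HCC and 9.34, 9.08 and 9.40 in normal hepatocytes. The 3 HCC arrays were below all the others, and aggregates lay at or just below the lowest non-aggregate array. The difference was 2.30 ± 0.39 (adjusted p = 0.0021). Cth, which makes cysteine, had a change of -0.02 in aggregates and -3.05 in HCC (difference adjusted p = 8.0e-04). Hpd, of tyrosine breakdown, had a change of -0.24 and -3.10 in the same order (difference adjusted p = 1.7e-04), and Prodh, of proline breakdown, changes of -0.25 and -2.95 (difference adjusted p = 1.3e-04). Among 16 genes of the methionine cycle and of one-carbon metabolism, 10 fell in HCC, 0 were called in aggregates, and the difference was higher for 5. Gnmt, which uses up excess S-adenosylmethionine, was at 14.88, 14.80 and 14.86 in aggregates, 14.86, 14.80 and 14.75 in non-aggregates, 13.11, 13.43 and 11.73 in HCC and 14.89, 14.89 and 14.89 in normal hepatocytes (difference 2.17 ± 0.45, adjusted p = 0.0062). Dmgdh and Ahcy, of the same cycles, differed by 2.22 and 1.33.

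Many genes of fatty acid oxidation and the respiratory chain fell in HCC. Of 32 oxidation genes, 21 fell and 1 rose in HCC, 0 were called in aggregates, and the difference was higher for 15 and lower for 1. The medians were -0.16 in aggregates and -0.96 in HCC. Acot1, a thioesterase induced by the fatty acid receptor PPARA, had log2 signals of 10.38, 11.10 and 10.07 in aggregates, 10.60, 11.36 and 10.46 in non-aggregates, 7.61, 7.57 and 7.38 in HCC and 11.61, 10.94 and 11.18 in normal hepatocytes. HCC lay below every other array and the premalignant groups overlapped (difference 3.43 ± 0.41, adjusted p = 2.6e-04). Decr1, of unsaturated fatty acid oxidation, and Acaa1b, a peroxisomal thiolase, differed by 2.07 and 1.72. The gene with a lower difference was Fgf21, a fasting hormone secreted by the liver, which had a change of 0.37 in aggregates and rose by 2.98 in HCC (difference adjusted p = 0.0043). Of 41 respiratory chain genes, 34 fell in HCC, 0 were called in aggregates, and the difference was higher for 15 (12 with the replicate block). Their medians were -0.03 and -0.62. Cox7b, a subunit of complex IV, had a change of 0.23 in aggregates and -1.29 in HCC (difference adjusted p = 7.1e-04). Cycs, cytochrome c, and the complex I subunits Ndufb3 and Ndufa5 differed by 1.35, 1.35 and 1.31.

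Bile acid and male-biased genes fell in HCC more often than they rose, and female-biased genes rose more often. Of 26 genes of bile acid synthesis and transport, 14 fell and 4 rose in HCC, where 26.0% and 23% of all genes did, and 0 were called in aggregates. The difference was higher for 10 and lower for 3, against 10% and 10.8% of all genes, so the lower count was near the share of all genes. Cyp7b1, of the alternative synthesis pathway and higher in males, had log2 signals of 14.52, 13.62 and 14.01 in aggregates, 14.54, 13.63 and 14.15 in non-aggregates, 10.41, 11.23 and 9.40 in HCC and 13.57, 13.95 and 14.34 in normal hepatocytes. HCC was below every other array and the premalignant groups had nearly the same values (difference 3.55 ± 0.58, adjusted p = 0.0017). The uptake carriers Slco1a4 and Slco1b2 differed by 2.84 and 2.22. Abcc4, an efflux pump of the sinusoidal membrane, went the other way, with a change of 1.35 in aggregates, which was not called, and 4.92 in HCC (difference adjusted p = 0.0075). Of 21 male-biased genes, 18 fell in HCC, 0 were called in aggregates, and the difference was higher for 12. The medians were -0.14 in aggregates and -2.06 in HCC, or -1.90 with genes undetected in one group held at their bound. Hsd3b5, a steroid enzyme, and Cyp4a12b, a fatty acid hydroxylase, had changes of -0.24 and -0.14 in aggregates and of -4.31 and -4.42 in HCC. HCC replicate 3 was the lowest of its group for both, at 5.55 and 4.80. The differences had adjusted p-values of 0.015 and 0.016. Probes of Cyp4a12b and Cyp2a4 may also read close copies.

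Of 15 measured female-biased genes, 8 rose and 0 fell in HCC, 0 were called in aggregates (2 with the replicate block), and the difference was lower for 3, namely Cyp2a4, Cyp2b9 and Abcd2, the last named after its values were seen. Cyp2a4, a steroid 15-alpha-hydroxylase, had 10.68, 11.89 and 12.06 in aggregates, 7.87, 10.24 and 9.99 in non-aggregates, 13.12, 13.15 and 13.20 in HCC and 5.94, 5.16 and 6.63 in normal hepatocytes. Aggregates lay above non-aggregates without overlap, and HCC was above both and far above normal. Its aggregate change of 2.18 ± 0.57 had an adjusted p of 0.11, or 0.018 with the replicate block, beside 7.25 ± 0.57 in HCC. The difference was -5.07 ± 0.80 (adjusted p = 0.0014). Cyp2b9 had a change of 1.66 in aggregates (adjusted p = 0.47) and 6.78 in HCC (difference adjusted p = 0.003).

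Transcription factors of the hepatocyte had medians of -0.10 in aggregates and -0.49 in HCC. Of 29 measured, 13 fell and 1 rose in HCC, 0 were called in aggregates, and the difference was higher for 6. Onecut2 had a change of -0.04 in aggregates and -2.15 in HCC (difference adjusted p = 4.9e-04). Klf15, a factor of the fasting response, had a change of -0.10 and -2.07 in the same order (difference adjusted p = 0.004), and Nr1h4, the bile acid receptor, changes of -0.10 and -1.31 (difference adjusted p = 0.022). The difference of Nr1h4 lost its call without non-aggregate replicate 1 (1.02), aggregate replicate 2 (1.09) or aggregate replicate 3 (1.14).

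Of 34 genes of the IL-6 and acute phase list, 11 rose and 13 fell in HCC, 0 were called in aggregates, and the difference was higher for 7 and lower for 3. Among all genes it was higher for 10% and lower for 10.8%, so the lower count was near the share of all genes. Saa1, a serum amyloid that inflammation induces, had log2 signals of 11.13, 11.68 and 11.97 in aggregates, 11.10, 11.74 and 12 in non-aggregates, 9.92, 9.81 and 12.20 in HCC and 14.38, 13.98 and 14.56 in normal hepatocytes. Its aggregates overlapped the non-aggregates, and every premalignant and HCC array lay below every normal array. The difference was 3.64 ± 0.73 (adjusted p = 0.005), and probes of Saa1 and Saa2 may read each other's transcript. Mt2, a metallothionein that binds zinc and copper, had log2 signals of 5.13, 4.79 and 6.17 in aggregates, 4.55, 4.64 and 5.69 in non-aggregates, 6.23, 6.13 and 5.50 in HCC and 9.56, 9.80 and 8.91 in normal hepatocytes. The normal arrays were the high ones, and aggregates overlapped both non-aggregates and HCC. Its difference of 3.87 ± 0.56 was called (difference adjusted p = 7.9e-04) with a change of 0.40 in aggregates and -3.47 in HCC. Mt2 was detected on only 1 of 3 non-aggregate arrays, so a fall in aggregates of the HCC size could not have been seen. The Mt2 promoter is shown because metal response elements there are the textbook switch of this gene. The window is chr8:94172368-94172667 of GRCm38.p6, on the plus strand, from RefSeq, and the capitals mark TGCACNC or TGCGCNC on either strand.
Mt2: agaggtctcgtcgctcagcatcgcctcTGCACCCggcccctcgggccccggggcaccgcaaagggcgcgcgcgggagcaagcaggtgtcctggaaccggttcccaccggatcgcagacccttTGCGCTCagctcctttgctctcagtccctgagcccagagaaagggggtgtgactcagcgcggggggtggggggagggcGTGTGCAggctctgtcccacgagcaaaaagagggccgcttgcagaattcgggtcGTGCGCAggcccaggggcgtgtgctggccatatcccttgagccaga
It holds 4 matches, which begin 223, 128 and 50 bases before and 4 after the gene start. Of all promoter windows 25.7% hold at least 1 and 1.97% hold 3 or more.

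"Not in aggregates" here means relative to non-aggregates, which are premalignant cells themselves. It also does not mean that small shifts were absent. Aggregate changes lay above 0 for 0 of 8 gluconeogenesis genes and 4 of 37 urea and amino acid genes. They did for 4 of 32 oxidation genes and 2 of 16 methionine cycle and one-carbon genes. The P450 list had 13 of 29 and the conjugating enzymes 19 of 37, beside 42.0% of all genes. Among the 1005 genes lower in HCC and not in aggregates, the mean of the premalignant groups lay nearer normal hepatocytes for 880 and nearer HCC for 125. Among the 858 genes higher in HCC it lay nearer normal for 769 and nearer HCC for 89. The premalignant mean lay nearer normal for 15 of 15 such genes of the P450 list, 14 of 14 of the urea and amino acid list and 15 of 15 of the oxidation list. It lay nearer HCC for 4 of 6 of the acute phase list. These positions are set across chips, so a chip effect cannot be told apart from them.

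**Figure D3:**
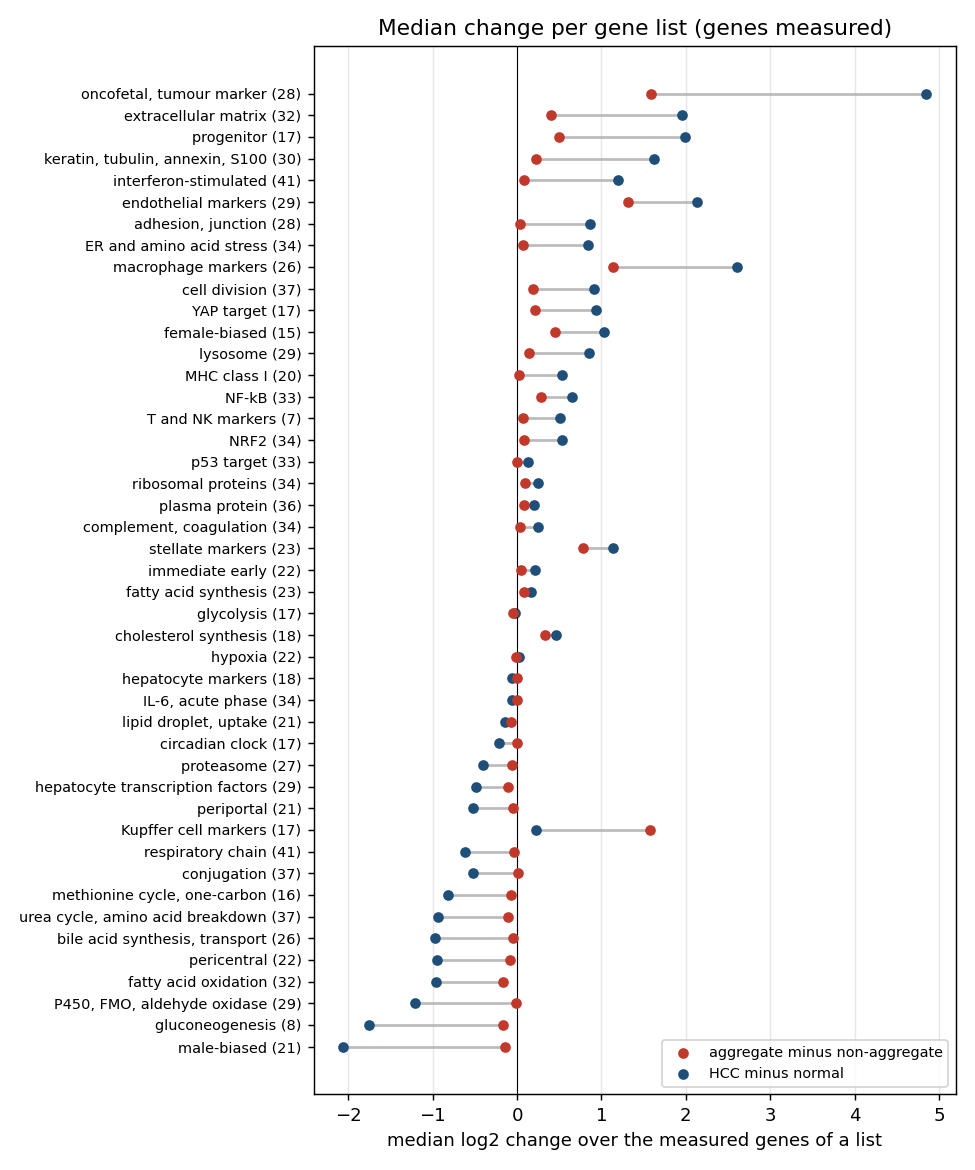
Median log2 change over the measured genes of each list with at least 5 measured genes (number in brackets), for aggregates over non-aggregates (red) and HCC over normal hepatocytes (blue), ordered by the median difference of changes. Metabolic lists at the bottom have a blue point well left of 0 and a red point near 0, and the oncofetal list at the top has both to the right.

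The largest rises among the genes higher in HCC and not in aggregates were in genes barely detected elsewhere. Of the 858 such genes, 150 passed the detection filter only through their HCC arrays, as did 829 of all genes tested, so a difference was built into them and their values are a description with no test. The counts of lower differences in the gene lists include such genes, among them Itga6, Cdkn2a, Sox4 and Timp1. Stc1, a secreted glycoprotein hormone, was not detected on any aggregate, non-aggregate or normal array, and was at least 13-fold higher in HCC than in normal hepatocytes. Kdelr3, a receptor that returns proteins to the endoplasmic reticulum, and Pglyrp1, which binds bacterial peptidoglycan, were likewise undetected in the other 3 groups. They were at least 11.6-fold and at least 10.8-fold higher in HCC, and all 3 passed the filter through HCC alone. Rab3d, a GTPase of secretory vesicles, was measured in all groups, at 7.55, 7.78 and 7.93 in aggregates, 7.40, 7.43 and 7.67 in non-aggregates, 10.01, 10.26 and 10.57 in HCC and 6.69, 7.08 and 6.72 in normal hepatocytes. HCC was above every other array by at least 2 units. Its change was 0.25 ± 0.18 in aggregates and 3.45 ± 0.18 in HCC (difference adjusted p = 2.7e-05).

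Some junction and cytoskeleton genes rose in HCC. Of 28 adhesion and junction genes, 17 rose in HCC, 0 were called in aggregates, and the difference was lower for 11. Itga6, among the 11, passed the filter through HCC alone. The medians were 0.04 in aggregates and 0.87 in HCC. Cldn3, a tight junction claudin, had log2 signals of 10.13, 9.93 and 9.76 in aggregates, 10.21, 9.73 and 9.60 in non-aggregates, 11.31, 11.52 and 11.85 in HCC and 8.94, 8.93 and 9.12 in normal hepatocytes. HCC was the highest group and aggregates overlapped non-aggregates (difference -2.48 ± 0.27, adjusted p = 1.4e-04). Cdh1, which encodes E-cadherin, had a change of 0.96 in aggregates (adjusted p = 0.866) and 3.27 in HCC. Its difference of -2.31 ± 0.70 (adjusted p = 0.036) lost its call in 9 of 24 alternative analyses, among them the omission of HCC replicate 1 (-2.35). The list of keratin, tubulin, annexin and S100 genes also holds the thymosins Tmsb4x and Tmsb10, which belong to none of these families. Of its 30 measured genes, 22 rose and 3 fell in HCC, and the difference was lower for 15 and higher for 2. In aggregates 3 rose, namely Anxa2, Tmsb4x and Tmsb10. S100a11, a calcium-binding protein of growing epithelia, was at 7.92, 8.58 and 8.94 in aggregates, 6.52, 7.69 and 7.07 in non-aggregates, 11.96, 11.13 and 11.40 in HCC and 6.70, 6.58 and 6.68 in normal hepatocytes. Its aggregate change had an adjusted p of 0.065, or 0.029 with the replicate block. The difference was -3.46 ± 0.45 (adjusted p = 3.9e-04). Anxa2 rose in both, by 2.31 in aggregates (adjusted p = 0.0035) and 5.88 in HCC, and the difference was called (difference adjusted p = 1.8e-04).

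Some stress and cell cycle inhibitor genes rose in HCC. Of 34 endoplasmic reticulum and amino acid stress genes, 17 rose and 2 fell in HCC, 0 were called in aggregates, and the difference was lower for 7, against 10.8% of all genes. Psat1, of serine synthesis, had a change of 1.19 in aggregates (adjusted p = 0.069) and 4.61 in HCC (difference adjusted p = 2.1e-04). Trib3, a pseudokinase induced by ATF4, had a change of 0.26 and 3.98 in the same order (difference adjusted p = 0.0043). Of 33 p53 target and cell cycle inhibitor genes, 12 rose and 4 fell in HCC, 0 were called in aggregates, and the difference was lower for 7 and higher for 1. Phlda3, a p53 target that restrains AKT, was undetected on every non-aggregate and normal array. It was at least 8.21-fold higher in HCC than in normal hepatocytes, was detected on 1 aggregate array, and passed the filter through HCC alone. Cdkn2b, an inhibitor of cyclin D kinases, was undetected in the same groups. It was at least 2.69-fold higher in aggregates, which was not called (adjusted p = 0.069), and at least 47.6-fold higher in HCC, with a called difference (difference adjusted p = 3.5e-04). The gene with a higher difference was Gadd45g, a stress-induced growth inhibitor, which had a change of -0.24 in aggregates and -4.61 in HCC (difference adjusted p = 0.0042). Its group means were 9.85 in aggregates, 10.09 in non-aggregates, 8.03 in HCC and 12.65 in normal hepatocytes. Both premalignant groups thus lay below normal, a comparison across chips, and the aggregate interval of -1.54 to 1.06 was wider than the bound. Of 41 interferon-stimulated genes, 17 rose in HCC, 0 were called in aggregates, and the difference was lower for 4, or 14 with the replicate block, so the first count was near the 10.8% of all genes. Tap1, the peptide transporter of antigen presentation, had a change of 0.09 in aggregates and 1.99 in HCC (difference adjusted p = 0.005). Aggregate and non-aggregate arrays of replicate 3 were the highest of their groups for Tap1, at 6.54 and 6.60.

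About as many cell division genes as genes at large differed between the comparisons. Of 37 measured, 19 rose and 4 fell in HCC, 0 were called in aggregates, and the difference was lower for 7 and higher for 2, near the 20.8% of all genes in both directions. The medians were 0.19 in aggregates and 0.91 in HCC, or 0.10 and 0.84 with genes at their bound. Ccnd1, cyclin D1, had log2 signals of 8.70, 9.35 and 9.76 in aggregates, 7.96, 8.15 and 8.17 in non-aggregates, 11.31, 11.01 and 10.75 in HCC and 7.93, 8.41 and 7.69 in normal hepatocytes. Aggregates lay above non-aggregates without overlap, and HCC above all. Its aggregate change of 1.18 ± 0.26 had an adjusted p of 0.063, and the difference was -1.84 ± 0.37 (adjusted p = 0.0053). Fatty acid synthesis genes were mixed: of 23 measured, 8 rose and 5 fell in HCC, 0 were called in aggregates, and the difference was lower for 6 and higher for 1. Among all genes 23% rose and 26.0% fell in HCC, so the count of falls was near that share. The difference was lower for 10.8% and higher for 10% of all genes. Pnpla3, a lipid droplet acyltransferase and lipase, had the largest lower difference of the list, and was at least 13-fold higher in HCC with an aggregate change of 0.58. It passed the filter through HCC alone.

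Matrix and progenitor-associated genes lay between these patterns. Of 32 matrix genes, 26 rose in HCC, 3 rose in aggregates and the difference was lower for 16. The medians were 0.41 in aggregates and 1.96 in HCC, or 0.15 and 1.70 with genes at their bound. Nid1, nidogen of the basement membrane, rose by 2.26 ± 0.29 in aggregates (adjusted p = 0.0035) and 6.12 ± 0.29 in HCC (difference adjusted p = 1.3e-04). Col4a2, a collagen of the same membrane, had a change of 0.45 in aggregates and rose by 3.23 in HCC (difference adjusted p = 0.0012). Of 17 progenitor-associated genes, 13 rose and 1 fell in HCC, 1 (Ly6d) rose in aggregates and the difference was lower for 9. Anpep, a surface aminopeptidase, had a change of 0.23 in aggregates and rose by 2.62 in HCC (difference adjusted p = 0.0037). Of 29 lysosome genes, 16 rose in HCC, 1 (Cd63) rose in aggregates and the difference was lower for 11. Ly6d and Cd63 are also counted in the oncofetal and tumour marker list below. Lipa, the lysosomal lipase, had a change of 0.14 in aggregates and rose by 1.70 in HCC (difference adjusted p = 0.0031). Of 33 genes of NF-kB and its targets, 19 rose and 3 fell in HCC, 0 were called in aggregates and the difference was lower for 8 and higher for 1. Of 34 NRF2 targets, 14 rose and 7 fell in HCC, 0 were called in aggregates and the difference was lower for 5, a share near the 10.8% of all genes. Nfe2l2, which encodes NRF2 itself, had a change of -0.05 in aggregates and rose by 1.42 in HCC (difference adjusted p = 0.0023).

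Many oncofetal and tumour marker genes rose in HCC, and some of them also rose, by less, in aggregates. Of 28 measured, 10 rose in aggregates (11 with the replicate block) and 24 rose and 3 fell in HCC. The difference was lower for 16 and higher for 2, and 10 of the 44 genes raised in both and more in HCC came from this list: Ly6d, Gpc3, Cd63, Gldn, Tspan8, Igdcc4, Akr1c18, Slpi, Golm1 and Pkm, some of which were named after their values were seen. The list was chosen with these data known, so its direction is not independent evidence. The medians were 1.59 in aggregates and 4.85 in HCC, or 1.52 and 4.80 with genes at their bound. Tspan8, a tetraspanin of secretory epithelia, had log2 signals of 8.94, 10.24 and 9.71 in aggregates, 5.28, 7.12 and 6.29 in non-aggregates, 12.26, 12.57 and 11.52 in HCC and 4.51, 4.45 and 4.60 in normal hepatocytes. Aggregates lay above non-aggregates and HCC above normal, each without overlap. It was 10.6-fold higher in aggregates (adjusted p = 0.0035) and at least 151-fold higher in HCC, and the fitted difference was -4.20 ± 0.61 (adjusted p = 8.5e-04). Gpc3, glypican 3, a proteoglycan used as a marker of human HCC, had 7.99, 9.32 and 8.58 in aggregates, 5.63, 6.47 and 5.87 in non-aggregates, 11.62, 11.17 and 13.43 in HCC and 4.45, 4.40 and 4.61 in normal hepatocytes. It was 6.24-fold higher in aggregates (adjusted p = 0.031) and at least 147-fold higher in HCC (difference adjusted p = 6.9e-04).

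Ly6d, a small membrane-anchored surface protein, was 4.08-fold higher in aggregates (adjusted p = 0.0023) and at least 128-fold higher in HCC (difference adjusted p = 5.5e-06). Cd63, a tetraspanin of lysosomes and exosomes, was 6.19-fold higher in aggregates (adjusted p = 0.0025) and 158-fold higher in HCC (difference adjusted p = 4.7e-05). Akr1c18, a steroid-reducing enzyme, was 10.3-fold (adjusted p = 0.0032) and at least 110-fold higher in the same order (difference adjusted p = 7.6e-04). Elapor1, an endosome-lysosome protein, was 2.55-fold higher in aggregates (adjusted p = 0.037) and at least 38.3-fold higher in HCC (difference adjusted p = 3.2e-05). In each of these genes aggregates did not overlap non-aggregates.

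Some genes of this kind varied widely among the premalignant arrays. Spink1, a trypsin inhibitor, had 7.32, 9.31 and 10.31 in aggregates, 5.19, 6.73 and 6.88 in non-aggregates, 13.24, 13.44 and 13.16 in HCC and 5.17, 5.60 and 5.61 in normal hepatocytes. Same-numbered aggregate and non-aggregate arrays moved together, and the aggregate change of 2.71 ± 0.61 had an adjusted p of 0.064 without and 5.1e-04 with the replicate block. Its HCC change was 7.82 ± 0.61 and the difference -5.11 ± 0.86 (adjusted p = 0.0021). Afp, alpha-fetoprotein of the fetal liver, had 6.14, 7.30 and 7.87 in aggregates, 4.27, 5.07 and 5.26 in non-aggregates, 10.02, 12.50 and 9.43 in HCC and 4.43, 4.51 and 4.53 in normal hepatocytes. Aggregates and HCC were each above their controls without overlap. The aggregate change of 2.24 ± 0.65 was not called (adjusted p = 0.177), HCC was at least 54.7-fold higher than normal, and the difference was called (difference adjusted p = 0.011). Csn3, a milk casein, was at least 70-fold higher in HCC and had a change of 1.19 ± 0.82 in aggregates, where replicate 2 was the highest at 7.41 (adjusted p = 1.00; difference adjusted p = 0.0061). Slc24a3, a potassium-dependent sodium-calcium exchanger, was undetected on every non-aggregate and normal array and was at least 21.9-fold higher in HCC. It was detected on 1 aggregate array and passed the filter through HCC alone.

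**Figure D4:**
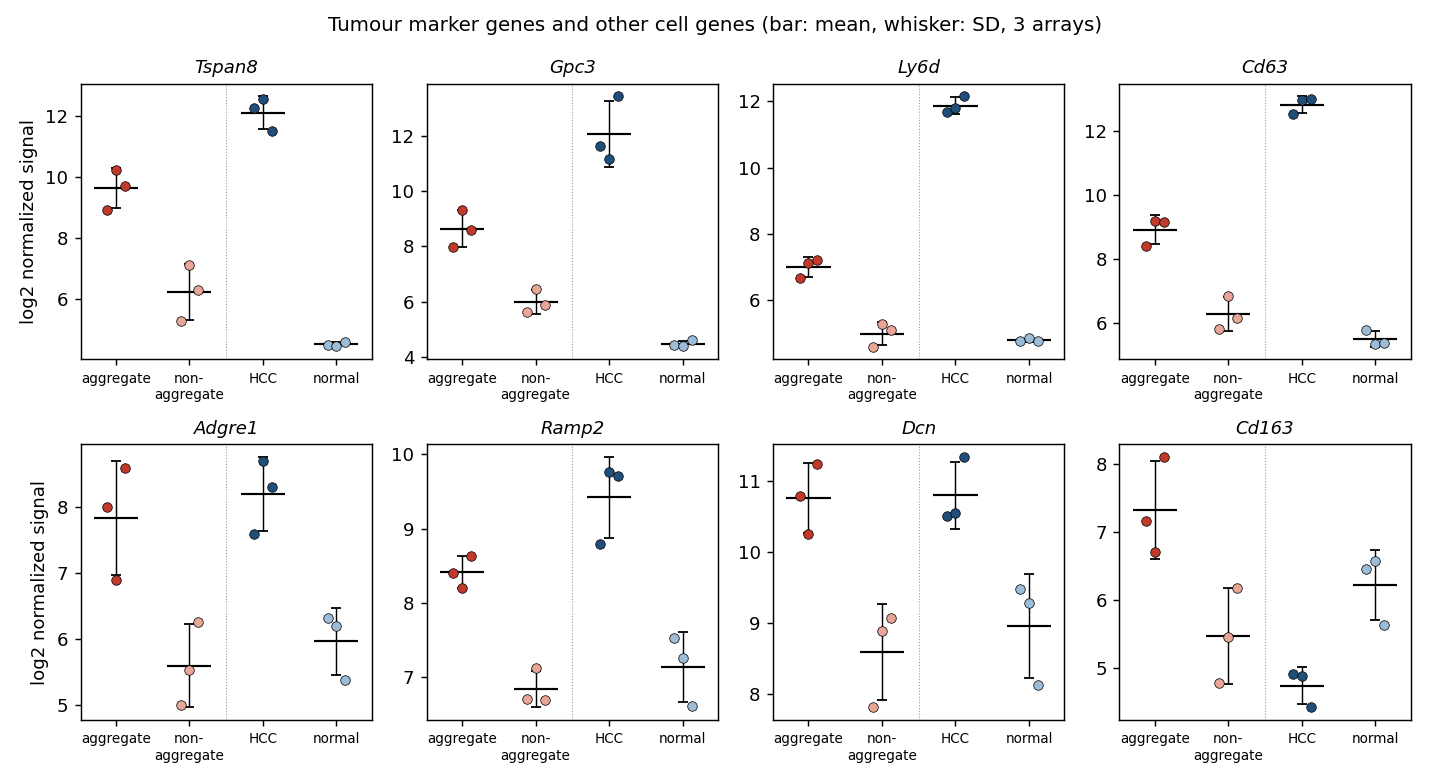
Log2 normalized signal of 8 genes on each of the 12 arrays (points), with the group mean (bar) and SD (whisker), for aggregates, non-aggregates, HCC and normal hepatocytes. The upper 4 genes are intermediate in aggregates and highest in HCC. Adgre1, Ramp2 and Dcn are raised in both aggregates and HCC without a called difference. Cd163 is raised in aggregates and lower in HCC than in normal hepatocytes.

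The 34 genes changed alike included markers of other liver cells. Of them 8 (23.5%) stood in the marker lists of other cell types, as did 7 (15.9%) of the 44 genes that rose in both and more in HCC, against 1.09% of all genes tested and 0.322% of the genes changed in HCC but not in aggregates. Those 7 include Ly6d, of the B cell list, and Tspan8, of the bile duct list, which also stand in the oncofetal list. The interval of the difference lay within 1 log2 unit of 0 for 6 of the 34, so equality was bounded for those alone. With the replicate block 21 of the 34 stayed in the class and 11 lost the aggregate call. The class held 1 gene without non-aggregate replicate 1, 2 without aggregate replicate 3 and 6 without aggregate replicate 1. It held 10 and 11 without non-aggregate replicates 2 and 3. It held 90 without aggregate replicate 2, 80 without HCC replicate 2 and 90 without normal replicate 3. Of the alike genes named here, Ednrb and Dpysl2 kept the aggregate call whichever array was left out.

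Dcn, decorin, a matrix proteoglycan made by stellate cells, had log2 signals of 10.78, 10.25 and 11.23 in aggregates, 7.81, 8.88 and 9.07 in non-aggregates, 10.50, 10.54 and 11.33 in HCC and 9.48, 9.27 and 8.12 in normal hepatocytes. Aggregates were above non-aggregates and HCC above normal, each without overlap. Dcn rose by 2.17 ± 0.42 in aggregates (adjusted p = 0.038) and 1.84 ± 0.42 in HCC, and the difference was 0.34 ± 0.59 with an interval from -0.95 to 1.62. Ednrb, the endothelin receptor B of sinusoidal cells, had 7.85, 7.41 and 8.13 in aggregates, 5.40, 6.07 and 6.11 in non-aggregates, 8.52, 8.60 and 8.93 in HCC and 6.39, 6.44 and 5.63 in normal hepatocytes. It rose by 1.94 ± 0.27 in aggregates (adjusted p = 0.0067) and 2.53 ± 0.27 in HCC, without overlap, and the interval of the difference ran from -1.42 to 0.23. Dpysl2, a protein that binds tubulin, rose by 1.45 ± 0.17 (adjusted p = 0.0032) and 2.16 ± 0.17 in the same order, with an interval from -1.25 to -0.18 that lay below 0. Tmsb4x, which binds monomeric actin, rose by 2.05 ± 0.29 (adjusted p = 0.0069) and 3.25 ± 0.29, and its difference had an adjusted p of 0.053, or 0.047 with the replicate block. Cyth4, a GTPase regulator of blood cells, rose by 1.71 ± 0.34 (adjusted p = 0.045) and 2.97 ± 0.34, and its difference, with an adjusted p of 0.086, was called with the block (adjusted p = 0.032).

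Most endothelial markers rose in HCC, and 9 of them were also called in aggregates, where 0.761% of all genes rose. Of 29 measured markers, 26 rose in HCC, 3 were called in aggregates with the replicate block, and the difference was lower for 7 and not called for 22. The medians were 1.32 in aggregates and 2.13 in HCC. Lyve1, a hyaluronan receptor of sinusoidal endothelium, had 7.84, 7.48 and 8.23 in aggregates, 6.27, 6.31 and 6.36 in non-aggregates, 8.98, 9.43 and 8.45 in HCC and 6.41, 6.88 and 5.72 in normal hepatocytes. It rose by 1.54 ± 0.30 in aggregates (adjusted p = 0.043, or 0.062 with the replicate block) and 2.61 ± 0.30 in HCC, each without overlap. Ramp2, which partners the adrenomedullin receptor, had 8.40, 8.20 and 8.64 in aggregates, 6.70, 7.12 and 6.69 in non-aggregates, 8.79, 9.76 and 9.71 in HCC and 7.52, 7.26 and 6.61 in normal hepatocytes. It rose by 1.57 ± 0.29 in aggregates (adjusted p = 0.027, or 0.052 with the block) and 2.29 ± 0.29 in HCC. Sox18, an endothelial transcription factor, rose by 1.34 ± 0.24 (adjusted p = 0.025) and 2.13 ± 0.24. Esm1, which marks sprouting vessels, was the endothelial gene with the largest difference. It had 7.81, 8.72 and 8.17 in aggregates, 4.67, 6.40 and 5.26 in non-aggregates, 11.41, 11.43 and 12.07 in HCC and 5.51, 4.82 and 4.29 in normal hepatocytes. It rose by 2.79 ± 0.42 in aggregates (adjusted p = 0.012) and 6.76 ± 0.42 in HCC, and the difference was called (difference adjusted p = 0.0011). Cdh5, the cadherin of endothelial junctions, rose by 1.39 in aggregates (adjusted p = 0.048, or 0.062 with the block) and 2.99 in HCC (difference adjusted p = 0.016).

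The summed linear signal of the endothelial markers was 8819 to 12788 in aggregates, 3609 to 4803 in non-aggregates, 17636 to 25681 in HCC and 2522 to 6485 in normal hepatocytes. Aplnr, Bmp2 and Erg of this list were detected on no array. The 23 stellate markers summed to 4305 to 6671 in aggregates, 1211 to 1938 in non-aggregates, 9965 to 21545 in HCC and 1223 to 2579 in normal hepatocytes. Of these 23, 3 rose in aggregates, 15 rose in HCC, and the difference was lower for 8 and higher for 1. The medians were 0.78 and 1.13, or 0.65 and 0.59 with genes at their bound, which turns their order. Those with a lower difference were Acta2, Sparc, Timp1, Reln, Col3a1, Col1a1, Myl9 and Pdgfrb, some of them named after their values were seen. Timp1 passed the filter through HCC alone, so its value is a description with no test. Acta2, smooth muscle actin, was at least 1.42-fold higher in aggregates, not called (adjusted p = 0.507), and rose by 5.14 in HCC (difference adjusted p = 1.9e-04). Lrat, which stores vitamin A in resting stellate cells, rose by 1.43 ± 0.28 in aggregates (adjusted p = 0.041, or 0.062 with the block). It was at least 1.42-fold higher in HCC than in normal hepatocytes, where it was undetected, and the difference was not called (difference adjusted p = 0.626). The part that these other cells have in the changes of any other gene was not tested.

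General and resident macrophage markers had medians in opposite order, with most differences not called. Of 26 markers of macrophages and monocytes at large, 24 rose in HCC and 0 were called in aggregates (1 with the block), while 25 of the 26 aggregate changes were above 0. The difference was lower for 4 and not called for 22. The medians were 1.14 in aggregates and 2.61 in HCC, or 1.14 and 2.55 at the bound. Their summed signal was 3879 to 9099 in aggregates, 1491 to 3630 in non-aggregates, 12003 to 23055 in HCC and 1624 to 2225 in normal hepatocytes. Cd14, the endotoxin co-receptor, had a change of 1.13 in aggregates (adjusted p = 0.247) and 4.01 in HCC (difference adjusted p = 0.0027).

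Kupffer cell markers had a higher median change in aggregates than in HCC, the reverse of the endothelial and general macrophage lists. Of 17 measured, 2 rose in aggregates (9 with the replicate block), and 6 rose and 1 fell in HCC. The difference was higher for 4, lower for 0 and not called for 13. Among all genes the difference was higher for 10% and lower for 10.8%. Marco is among the 2 called in aggregates and the 4 with a higher difference, but passed the filter only through the aggregate arrays. Its part is therefore no test. The medians were 1.57 in aggregates and 0.22 in HCC. The median of the difference gene by gene was smaller, 0.52, and ran from 0.046 to 0.71 over the alternative analyses. Their summed signal was 7282 to 13104 in aggregates, 4973 to 6962 in non-aggregates, 5957 to 8234 in HCC and 6055 to 6627 in normal hepatocytes. Cd5l, another Kupffer marker, was detected on no array. Adgre1, the F4/80 antigen of most mouse macrophages, had 7.99, 6.89 and 8.59 in aggregates, 5.0, 5.53 and 6.25 in non-aggregates, 7.59, 8.69 and 8.30 in HCC and 6.31, 6.20 and 5.37 in normal hepatocytes. It rose by 2.23 ± 0.45 in aggregates (adjusted p = 0.045) and 2.23 ± 0.45 in HCC, and the interval of the difference ran from -1.39 to 1.37. Its aggregate call was lost when any of 8 arrays was left out. Cd163, the haemoglobin scavenger receptor, had 7.16, 6.70 and 8.10 in aggregates, 4.78, 5.46 and 6.18 in non-aggregates, 4.91, 4.89 and 4.43 in HCC and 6.45, 6.57 and 5.63 in normal hepatocytes. Aggregates were above non-aggregates and HCC below normal, each without overlap. It had a change of 1.84 ± 0.40 in aggregates (adjusted p = 0.057, or 0.019 with the replicate block) and fell in HCC, with a change of -1.47 ± 0.40. The difference was 3.32 ± 0.56 (adjusted p = 0.0021).

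Fcna, a ficolin made by Kupffer cells, had 9.47, 8.55 and 10.21 in aggregates, 6.71, 7.33 and 7.94 in non-aggregates, 7.87, 8.04 and 7.41 in HCC and 8.15, 8.24 and 6.86 in normal hepatocytes. It had a change of 2.08 ± 0.45 in aggregates (adjusted p = 0.058, or 0.039 with the block) and 0.02 ± 0.45 in HCC, and the difference was 2.06 ± 0.64 (adjusted p = 0.041). Timd4, a receptor for dying cells on long-lived Kupffer cells, had a change of 0.78 in aggregates, was detected on no HCC array and was at least 1.27-fold lower there than in normal hepatocytes (difference adjusted p = 0.029). Marco, a scavenger receptor, was detected on no non-aggregate or normal array and on 1 HCC array, and was at least 1.46-fold higher in aggregates. The differences of Fcna and Timd4 lost their calls in 14 and 9 of 24 alternative analyses, and that of Marco in 13 of the 23 that measured it. The omission of aggregate replicate 3 was among them, without which they were 1.66, 0.96 and 0.64. Gbp2b, an interferon-induced GTPase, was with Marco and Wfdc1 one of 3 genes called in aggregates and not in HCC. It had 6.26, 5.70 and 6.71 in aggregates, 4.31, 4.51 and 5.39 in non-aggregates, 4.78, 4.34 and 4.53 in HCC and 4.57, 4.45 and 4.27 in normal hepatocytes, with a change of 1.49 ± 0.29 in aggregates and a difference of 1.37 ± 0.41. The call of the difference was lost in 11 of the 23 alternative analyses that measured the gene, and its value was 1.13 without aggregate replicate 3. Marco and Gbp2b were the 2 of the 81 genes called in aggregates that passed the detection filter only through the aggregate arrays, so their values too are a description with no test. Wfdc1 was named after its values were seen.

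**Figure D5:**
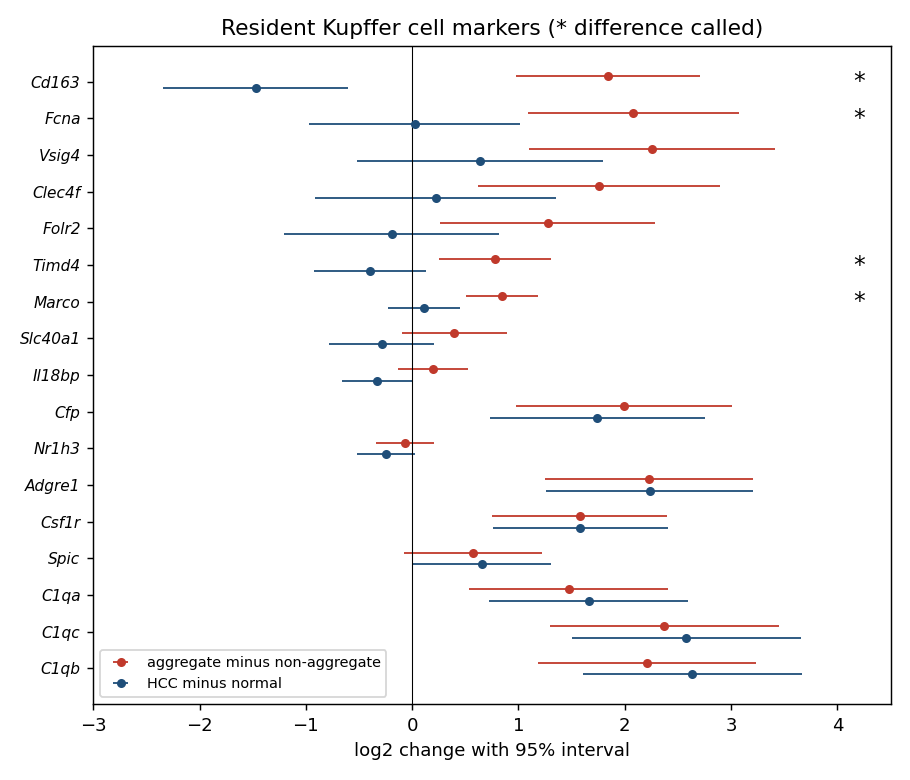
Log2 change with its 95% interval for 17 resident Kupffer cell markers, aggregates over non-aggregates (red, upper) and HCC over normal hepatocytes (blue, lower), ordered by the difference of changes. Stars mark the 4 genes with a called difference (Cd163, Fcna, Timd4 and Marco), of which Marco passed the detection filter through the aggregate arrays alone. The complement genes at the bottom have overlapping intervals.

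No ribosomal protein or proteasome gene had a called difference in limma's test. Of 34 ribosomal protein genes, 11 rose and 2 fell in HCC, 0 were called in aggregates and 0 differences were called, with 2 higher and 1 lower before adjustment (p under 0.05) and medians of 0.09 in aggregates and 0.25 in HCC. Of 27 proteasome genes, 1 rose and 11 fell in HCC, 0 were called in aggregates and 0 differences were called, with 4 higher and 0 lower before adjustment and medians of -0.06 in aggregates and -0.41 in HCC. Among all 10641 genes the difference was called for 20.8%, with 1891 higher and 1838 lower before adjustment. Among progenitor genes of the named panel, Cd44, a hyaluronan receptor, had a change of 0.58 ± 0.27 in aggregates (adjusted p = 0.72) and 0.68 ± 0.27 in HCC (adjusted p = 0.053), with a difference of -0.10 ± 0.38 (adjusted p = 0.877). Sox9, a factor of bile duct and progenitor cells, had a change of 0.50 ± 0.46 in aggregates (adjusted p = 1.00) and rose by 1.81 ± 0.46 in HCC (adjusted p = 0.0065), and the difference of -1.31 ± 0.65 was not called (difference adjusted p = 0.174). Their intervals ran from -0.94 to 0.73 and from -2.73 to 0.11. Il6, the cytokine of the same panel, did not pass the detection filter.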

How the data were processed

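Total RNA of 12 samples was labelled with biotin, per the labels' protocols, and read on Illumina bead arrays. The authors deposited an average signal intensity and a detection p-value for each of 45281 probes, and a table of normalized intensity values. Their scanner settings and normalization are not given in the sources used here. The lowest deposited signal was 30.6, so the intensities had no background subtracted.

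Signals were background corrected by normexp with the deposited detection p-values, offset by 16, quantile normalized and taken to log2 with limma 3.58.1 in R 4.3.3. Probes detected (p below 0.05) on at least 3 arrays were kept (19670), and 16759 of them had 1 gene in the platform annotation, with symbols updated through RefSeq. Among all probes the annotation gave 1 gene for 34885, several for 18 and none for 10378. Each gene was read from its probe with the highest mean. Group means were fitted over all 12 arrays (lmFit, eBayes), and p-values adjusted over 10641 genes (Benjamini-Hochberg). The test was checked on simulated data with independent noise and the same spread in every group. That check does not cover arrays that deviate together or groups with unequal spread, as occur here. With 3 arrays a group, the number of arrays limits the precision. Figures were drawn with matplotlib 3.10.9.

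"At least N-fold" sets the bright group's mean against the lowest detected signal on each array of a group where the probe was undetected, or its own signal where higher. Aggregate and non-aggregate arrays of the same number deviated together from their group means (r = 0.71, 0.54 and 0.64), while HCC and normal arrays did not (-0.01, 0.12 and 0.10). The numbers come from the labels, and same-numbered aggregate and non-aggregate arrays also lay side by side on the chip. The replicate block was therefore fitted for the premalignant groups. Alternatives covered background, scaling, filter, probe choice, fold threshold, chips apart, array weights, blocks and omission of each array. The members, the 49 gene lists and the tests were chosen with earlier results of these data known. Named genes were those with the largest differences overall and in each class and list, with a panel of tumour genes, and exceptions are marked. Motifs were searched in RefSeq promoters of GRCm38.p6.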

Additional observations from a re-analysis of the deposited data

How the results depend on the processing

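With 3 arrays a group, the counts that rest on the aggregate change moved most. The main counts were 81 genes called in aggregates, 34 changed alike and 44 changed in both by different amounts. In that order they were 26, 4 and 22 without background correction, 215, 83 and 127 with median scaling, 153, 75 and 74 with cyclic loess, 27, 5 and 21 with no detection filter, and 379, 185 and 142 with array weights. The authors' deposited values gave 40 aggregate calls and 9 alike genes. Leaving out 1 array gave 16 to 159, 1 to 90 and 15 to 74. A replicate block within each chip gave 67 genes changed in both, whereas the block for aggregates and non-aggregates gave 2104 differences, 90 aggregate calls and 34 alike genes. The 2214 differences ranged over 1552 to 2540 with 1 array left out. The 5218 HCC calls became 7902 with each probe tested by itself and 2408 with a log2 change of at least 1, which also lowered the 1863 genes changed in HCC but not in aggregates to 1135. The last count was 1205 to 2184 with 1 array left out. Of 169 named differences, 155 were measured in all 24 alternatives and 119 of these kept their call in each, while 14 were measured in fewer, of which 8 kept their call in those run. The difference of Sox4 (main value -2.30) ranged over -2.42 to 0.03 with 1 array left out and turned positive without HCC replicate 2 (0.035) or 3 (0.022), where its probe, detected on the HCC arrays alone, missed the filter and another probe was read. Other causes were not tested. Higher calls were 18.9% of differences with median scaling, against 48.1% in the main analysis, and 70.8% of HCC calls with median scaling and 58.8% with the authors' values, against 47.0%.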
